A study of Mus musculus with 6 samples.

Results

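The 78 small nucleolar and Cajal body RNA genes described here were those of 22180 genes with a probe of their own whose symbol begins with Snora, Snord or Scarna and a number. They comprised 26 H/ACA genes (Snora), 47 C/D genes (Snord) and 5 Cajal body genes (Scarna). Of the 81 probes that name them, the probe with the highest mean over the 6 arrays stood for each gene, so the probes were selected on that mean, which is not a result. A further 46 probes name such an RNA together with another gene, and these were not counted as members.

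Livers came from male C57BL/6 mice that were 8 weeks old at the start. The 3 Vascepa samples came from mice given Vascepa for 7 days and then a high-fat diet for 6 weeks. Vascepa is a drug that holds eicosapentaenoic acid, an omega-3 fatty acid of fish oil, as its ethyl ester. The 3 vehicle samples came from mice given vehicle for 7 days and the same diet for 6 weeks, so both groups carried the diet. A group kept off it was not analysed here. The labels give no dose and do not state whether each sample was a separate animal, so p-values here reflect the spread among these 6 samples alone, and that spread may be technical. Whole liver RNA was hybridised to Affymetrix arrays, 1 per sample, and the number of arrays limits the precision. All levels are log2 values made with RMA. This method corrects background, gives every array the same distribution of probe intensities and then summarises the probes of a transcript. The summarised values need not share a distribution, and array medians over all tested genes ran from 4.31 to 4.59. A difference of 1 is a doubling, and differences are Vascepa minus vehicle.

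Small nucleolar RNAs are short stable RNAs that guide chemical changes in ribosomal RNA. H/ACA RNAs direct the conversion of uridine to pseudouridine, with dyskerin (Dkc1) as the enzyme, and C/D RNAs direct methylation of the ribose, with fibrillarin (Fbl) as the enzyme. Some of either class take part in cutting the ribosomal RNA precursor instead. Cajal body RNAs guide the same changes on the RNAs of the spliceosome. In mammals most of them are cut from introns of host genes, many of which encode ribosomal proteins or translation factors, while other hosts are non-coding genes known as Snhg genes. In cultured rodent cells, C/D RNAs from the introns of Rpl13a have been tied to the response to lipid overload, and Snora73 (also called U17) to cholesterol trafficking.

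Over all tested genes, r between any 2 arrays lay between 0.906 and 0.986, and Vascepa replicate 3 had the lowest mean r, 0.938 against 0.959 to 0.973 for the others. All 7 hepatocyte markers were measured, with Alb at 13.33, 13.29 and 13.18 in Vascepa livers and 13.30, 13.30 and 13.32 in vehicle livers, bright on every array. The mean level of the hepatocyte list ranged from 12.09 to 12.63 in Vascepa livers and from 12.43 to 12.62 in vehicle livers. Its lowest value lay on Vascepa replicate 3, where 0 of the 7 markers exceeded their vehicle mean and Tat, an amino acid enzyme, stood at 10.17. The Kupffer cell list (6 of 6 measured) ranged from 5.70 to 6.10 in Vascepa livers and from 6.16 to 6.24 in vehicle livers, without overlap. Of its genes, Vsig4 differed by −0.53 and Timd4 by −0.54, while the others lay between −0.19 (Adgre1) and 0.061 (Marco). The endothelial list (4 of 4) ranged from 6.87 to 6.99 and from 6.90 to 7.07 in Vascepa and vehicle livers, and the stellate list (3 of 3) from 4.94 to 5.51 and from 5.30 to 5.41. Cholangiocyte markers (3 of 4) ranged from 2.98 to 3.70 in Vascepa livers and from 3.27 to 3.72 in vehicle livers. The remaining lists were dim: T and B cells (3 of 4) at 2.73 to 3.02 in Vascepa and 3.02 to 3.09 in vehicle livers, neutrophils (3 of 3) at 2.35 to 3.12 and 2.43 to 3.13, skeletal muscle (4 of 4) at 3.16 to 3.27 and 3.00 to 3.16, and pancreas (3 of 4) at 2.08 to 2.43 and 2.00 to 2.14. The skeletal muscle ranges did not overlap either, though they met at 3.16 to within rounding, and no list was tested as a whole. In whole liver, fewer cells of a type and less RNA per cell cannot be told apart.

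The small RNAs varied from array to array, within both groups. Their levels are those in the extracted RNA, and recovery of short RNAs in each sample was not tested. Their mean level was 5.52, 6.63 and 7.18 in Vascepa replicates 1 to 3, against 5.67, 6.52 and 5.92 in vehicle replicates 1 to 3. Vascepa replicate 3 was the highest of all, Vascepa replicate 2 and vehicle replicate 2 lay close together below it, and Vascepa replicate 1 and vehicle replicate 1 were the lowest. The means of the 3 array values were 6.44 ± 0.84 in Vascepa livers and 6.03 ± 0.44 in vehicle livers (SD, n = 3 each), so the groups overlapped. Gene by gene, the highest of the 6 levels fell on Vascepa replicate 3 for 59 of 78 members, on Vascepa replicate 2 for 6, on vehicle replicate 2 for 12 and on vehicle replicate 1 for 1. Of all 13493 tested genes, 23.0% were highest on Vascepa replicate 3, and 5232 were lowest there. The lowest level fell on Vascepa replicate 1 for 39 and on vehicle replicate 1 for 28 members, where 30.5% of all tested genes were lowest on either. Within the Vascepa group alone, replicate 3 exceeded replicate 1 in 76 of 78 members, with a median difference of 1.78 over all 78. It did so in 5878 of all tested genes. Within the vehicle group, replicate 2 exceeded replicate 1 in 71 of 78, with a median difference of 0.83 over all 78, and in 6462 of all tested genes. On Vascepa replicate 3 the hepatocyte markers lay at a median of −0.13 against their vehicle means, near the −0.12 of all tested genes. Means differed more: against each gene's own mean over the 6 arrays, the markers averaged −0.37 there and all tested genes −0.12. Tat fell furthest, at 10.17 against a vehicle mean of 11.89. These lower markers went with the highest small RNA levels, and their part in them was not tested.

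**Figure D1:**
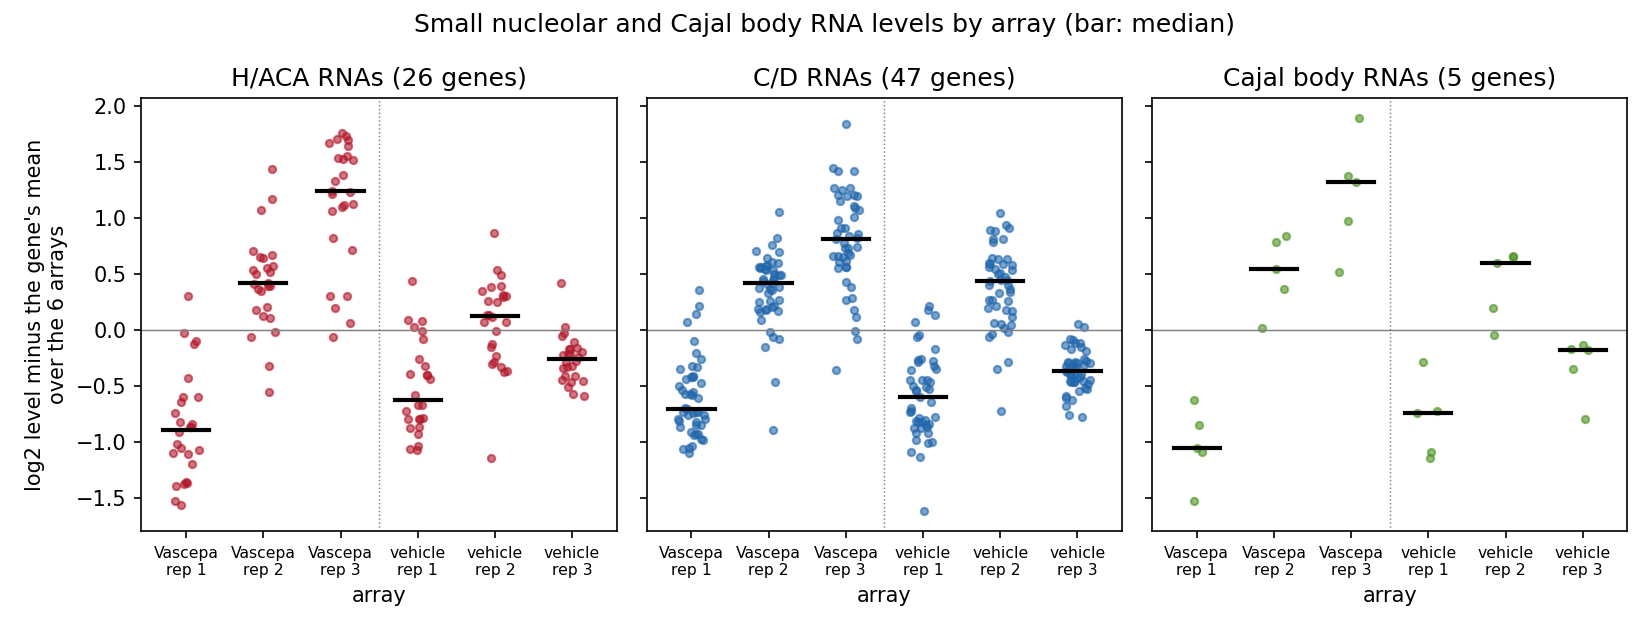
Log2 level of each small RNA gene minus its own mean over the 6 arrays, by array, for the 26 H/ACA, 47 C/D and 5 Cajal body genes; each point is a gene and each bar the median over genes. In all 3 classes the median of Vascepa replicate 3 lies highest, and those of Vascepa replicate 1 and vehicle replicate 1 lie lowest.

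A gene entered the test where its mean over the 6 arrays reached 2.65, the median of all probes, which left 13493 genes and 72 of the 78 members (23 H/ACA, 44 C/D and 5 Cajal body). Just outside the limit lay Snord88a at a mean of 2.44, and just inside it Snord43 at 2.75, Snord90 at 2.96 and Snora78 at 2.98. Snora75 was the only member whose vehicle mean, 2.55, lay under the limit while its overall mean passed. The fit of all 13493 genes with limma called 0 members at a Benjamini-Hochberg adjusted p under 0.05, where 0.0% of all genes were called, and the lowest adjusted p was 0.976. At an unadjusted p under 0.05, 2 members (Snord53 and Snora75) were higher in Vascepa livers, where 1.04% of all genes were, and 0 were lower, where 1.64% were. Groups did not overlap for 1 tested member that was higher (Snord53), where 3.13% of all genes were, and for 1 that was lower (Snord123), where 5.11% were. The number of members called was therefore near the background.

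The signs of the differences leaned to one side. Of the 72 tested members, 65 had a higher mean in Vascepa than in vehicle livers and 7 a lower one, whereas 39.9% of all tested genes had a higher mean. The median difference was 0.45 over the tested members and −0.063 over all tested genes, and single members ranged from −0.21 to 1.43. By class the medians were 0.55 for H/ACA, 0.42 for C/D and 0.45 for Cajal body genes. This lean rested on single arrays: the median over members was 0.022 without Vascepa replicate 3, with 41 members higher and 31 lower, and 0.93 without Vascepa replicate 1. It was 0.20 without vehicle replicate 1 and 0.68 without vehicle replicate 2. Differences were also small against the spread, because the SD within groups had a median of 0.79 over members and 0.29 over all genes. The difference exceeded that SD in 8 of 72 members (11.1%) and in 26.0% of all genes.

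The count of small p-values depended on which array was left out or weighted. Without Vascepa replicate 1, 45 of 72 members had an unadjusted p under 0.05 and a higher Vascepa mean, against 4.03% of all genes, and none passed the adjusted threshold in limma. Without Vascepa replicate 3 the same count was 1 of 72, against 0.993% of all genes. With limma's array weights, 52 members were called higher at an adjusted p under 0.05 and 1 lower, where 11.5% of all genes were called higher and 18.9% lower. In that fit Vascepa replicate 2 took a weight of 39.5 and no other array one above 2.33, and the estimate of the weights had not converged.

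**Figure D2:**
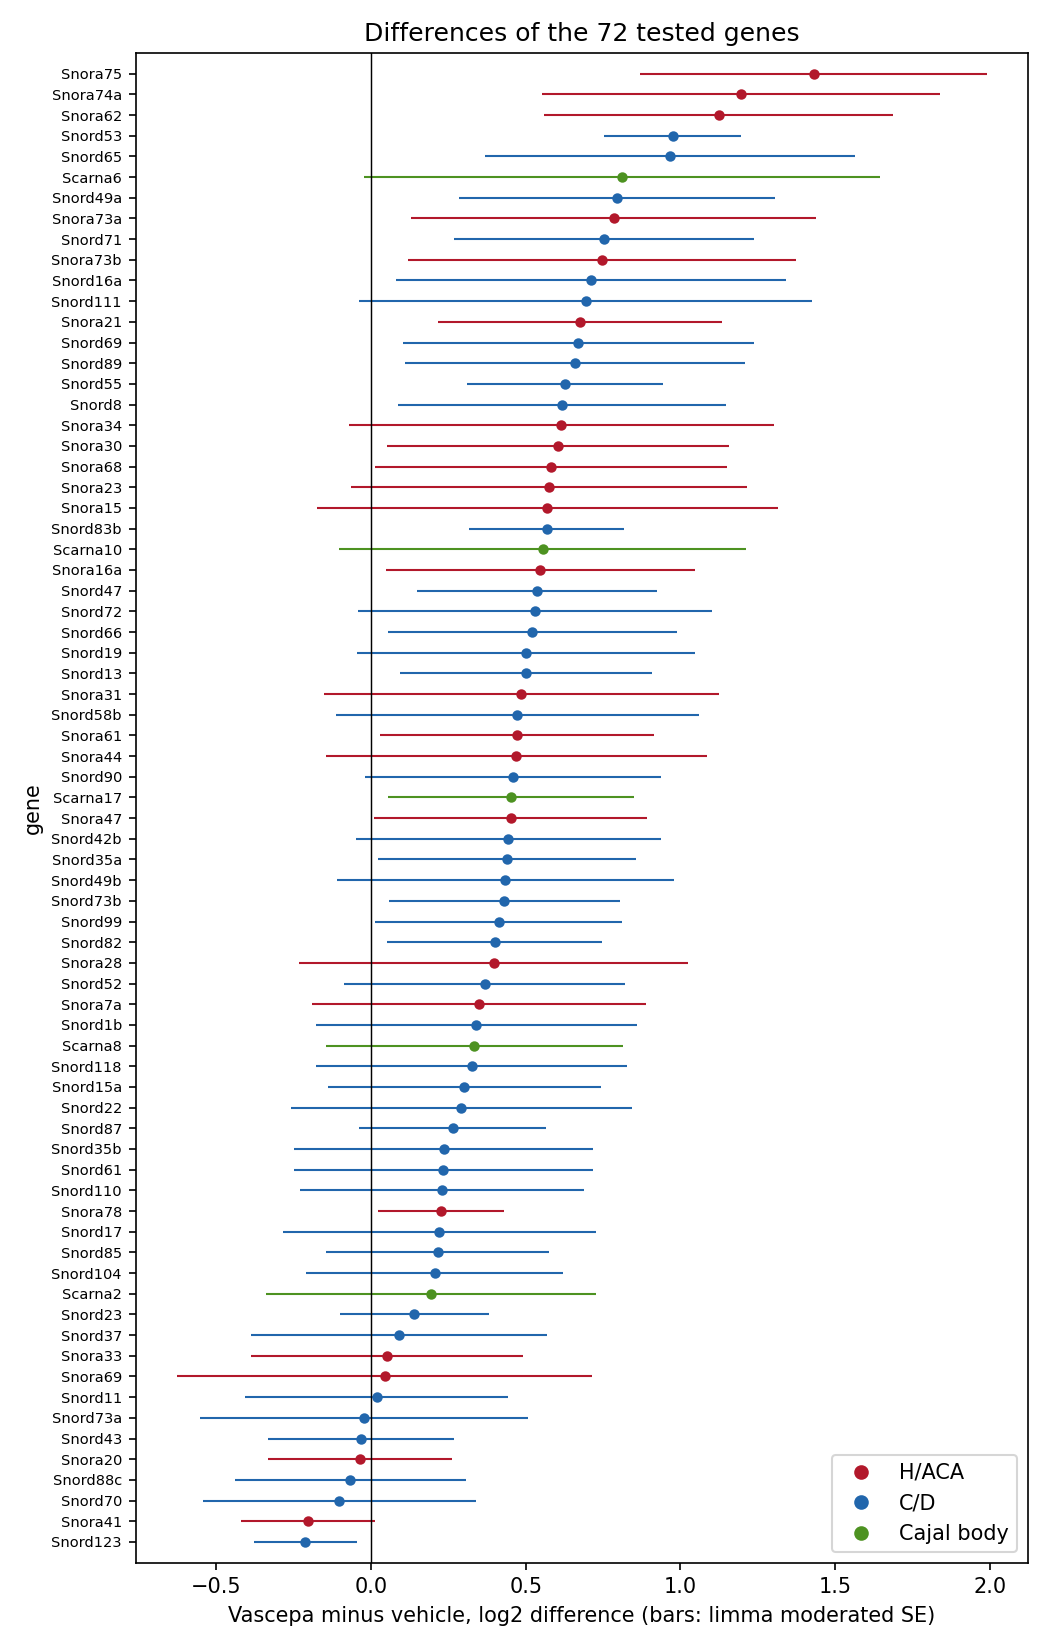
Vascepa minus vehicle log2 difference of each of the 72 tested small RNA genes, with limma's moderated standard error as the bar and colour for the class. Most points lie right of 0, between −0.21 and 1.43, and many bars reach or cross 0.

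Of the 23 tested H/ACA genes, 19 were highest on Vascepa replicate 3, among them both copies of Snora73 and the members with the widest spans. Snora73a, a copy of the U17 RNA needed for processing of small-subunit ribosomal RNA, had levels of 6.67, 8.34 and 9.47 in Vascepa livers, against 6.84, 8.08 and 7.20 in vehicle livers. Its copy Snora73b had 6.85, 8.45 and 9.56, against 7.12, 8.17 and 7.33. Both copies were highest on Vascepa replicate 3 and lowest on Vascepa replicate 1, and the groups overlapped (differences of 0.78 ± 0.66 and 0.75 ± 0.63, SE). As near-identical copies within the host Snhg3, they may share signal and are not independent observations. Snora15, from an intron of the chaperonin gene Cct6a, had 5.31, 7.48 and 8.56 in Vascepa livers and 5.96, 7.18 and 6.50 in vehicle livers. Snora34, from Kansl2, had 6.25, 8.14 and 9.37, against 6.89, 7.69 and 7.34. These spans of 3.25 and 3.12 between the lowest and the highest array were wholly within the Vascepa group, and the vehicle values lay inside them (differences of 0.57 ± 0.75 and 0.61 ± 0.69).

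Snora75 and Snora62 had the smallest p-values among H/ACA genes. Snora75 (U23), from an intron of the nucleolin gene Ncl, had levels of 2.62, 4.34 and 4.97 in Vascepa livers and 2.47, 2.12 and 3.05 in vehicle livers. Vascepa replicates 2 and 3 exceeded all vehicle arrays, while replicate 1 lay among them (difference 1.43 ± 0.56, limma, unadjusted p = 0.035, adjusted p = 0.976). It is dim, and its vehicle mean lay under the intensity limit. Snora62 (E2), from an intron of the ribosomal protein gene Rpsa, had 7.01, 9.32 and 9.0 in Vascepa livers and 6.85, 7.51 and 7.60 in vehicle livers. Here too Vascepa replicates 2 and 3 exceeded all vehicle arrays and replicate 1 lay among them (1.12 ± 0.56). Snora74a, inside Snhg4 and named after its values were seen, had the same pattern, with 4.45, 6.67 and 7.17 in Vascepa livers and 4.43, 5.22 and 5.06 in vehicle livers (1.20 ± 0.64). Ncl itself differed by −0.23 ± 0.33 and Rpsa by 0.17 ± 0.32.

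In Snora33, Snora41, Snora20 and Snora78, Vascepa replicates 2 and 3 did not both exceed all vehicle arrays. Snora33, from an intron of Rps12, had 8.68, 9.64 and 9.58 in Vascepa livers and 8.49, 10.14 and 9.11 in vehicle livers (0.052 ± 0.44), with its highest level on vehicle replicate 2. When each array was centred on its median this value was −0.024, so it has no settled sign. Snora41, from Eef1b2, had 2.96, 3.57 and 3.33, against 3.41, 3.69 and 3.37 (−0.20 ± 0.22). Snora20, from the chaperonin gene Tcp1, had 5.19, 4.33 and 5.08, against 5.32, 4.55 and 4.83 (−0.035 ± 0.30). It differed in pattern from most members, because Vascepa replicate 2 and vehicle replicate 2 were its lowest arrays and vehicle replicate 1 its highest. Snora78, which lies within the spans of both Snhg9 and Rps2, ranged over only 0.62 across the arrays. It had 2.89, 3.11 and 3.28 in Vascepa livers and 2.66, 3.12 and 2.82 in vehicle livers (0.23 ± 0.20).

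C/D genes with a role in ribosomal RNA processing or in modification other than methylation also overlapped between groups. Snord22 (U22), needed in frog oocytes for small-subunit RNA processing, had 8.12, 9.59 and 10.37 in Vascepa livers and 8.61, 9.71 and 8.88 in vehicle livers (0.29 ± 0.55). Snord118 (U8), needed there for large-subunit RNA processing, had 3.96, 5.40 and 5.60, against 3.91, 5.37 and 4.71 (0.33 ± 0.50). Snord13 (U13), which in human cells guides acetylation of ribosomal RNA, had 10.20, 11.44 and 11.92, against 10.59, 10.92 and 10.54 (0.50 ± 0.41). Each was highest on Vascepa replicate 3. Vehicle replicate 2 exceeded Vascepa replicate 2 for Snord22 and lay just under it for Snord118, while for Snord13 it lay well below.

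The C/D gene tied to lipid overload that could be measured was Snord35a, from an intron of the ribosomal protein gene Rpl13a. Its levels were 5.89, 6.99 and 7.15 in Vascepa livers, against 5.64, 6.90 and 6.17 in vehicle livers. The groups overlapped, with vehicle replicates 2 and 3 above Vascepa replicate 1 (0.44 ± 0.42). Its neighbours Snord32a, Snord33 and Snord34 share their probes with Rpl13a and were not members. Snord47, from an intron of the growth-arrest RNA Gas5, had 8.87, 9.63 and 10.21, against 8.61, 9.64 and 8.86 (0.54 ± 0.39). Snord104 had 10.31, 11.47 and 11.84, against 10.64, 11.54 and 10.81 (0.21 ± 0.42).

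Snord53 had the smallest p of all members. It is a C/D gene inside Wdr43, which encodes a protein of ribosome assembly, and had levels of 3.37, 3.98 and 3.58 in Vascepa livers and 2.71, 2.44 and 2.86 in vehicle livers. All 3 Vascepa arrays exceeded all 3 vehicle arrays, and the difference was 0.97 ± 0.22 (1.97-fold; limma, unadjusted p = 0.0024, adjusted p = 0.976). Its order of arrays was unlike that of most members, since vehicle replicate 2 was lowest and Vascepa replicate 2 highest. It lies near the dim end, and leaving out any single array gave a difference between 0.81 and 1.11. Wdr43 differed by 0.31 ± 0.20, with 6.60, 6.57 and 6.14 in Vascepa livers and 5.96, 6.16 and 6.27 in vehicle livers, and those groups overlapped. Snord92, in the same host, lay under the intensity limit at 1.54, 2.51 and 2.23, against 1.68, 2.02 and 1.79.

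Further C/D genes with small p-values were Snord83b and Snord55. Snord83b, inside the ribosomal protein gene Rpl3, had 4.88, 5.58 and 5.66 in Vascepa livers and 4.73, 5.02 and 4.66 in vehicle livers (0.57 ± 0.25). Snord55 had 8.41, 9.13 and 9.57, against 8.28, 8.77 and 8.18 (0.63 ± 0.32). For both, vehicle replicate 2 lay above Vascepa replicate 1 and below the other 2 Vascepa arrays. On the lower side, Snord123, inside Snhg18, had 2.89, 2.83 and 2.91 in Vascepa livers and 3.06, 3.20 and 3.01 in vehicle livers (−0.21 ± 0.17). Its groups did not overlap, and its whole span of 0.36 was the smallest of the tested members. Snord70 (−0.10 ± 0.44) and Snord88c (−0.067 ± 0.37) overlapped between groups.

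The 5 Cajal body genes had some of the widest spans. Scarna6, inside the autophagy gene Atg16l1, had 7.26, 9.63 and 10.68 in Vascepa livers and 7.70, 9.45 and 8.00 in vehicle livers. Its span of 3.42 was the widest of the 72 tested members and lay between arrays of the Vascepa group (difference 0.81 ± 0.83). Scarna2, a guide for U2 spliceosomal RNA, had 6.78, 8.19 and 8.81, against 7.11, 8.43 and 7.65 (0.19 ± 0.53). Scarna10 (U85), a guide for U5 spliceosomal RNA, had 5.98, 7.61 and 8.45, against 5.93, 7.72 and 6.73 (0.55 ± 0.66). In these 3 genes vehicle replicate 2 exceeded Vascepa replicate 1, so the groups overlapped. Scarna17 had 7.10, 8.51 and 8.25 in Vascepa livers and 6.99, 7.92 and 7.59 in vehicle livers (0.45 ± 0.40). Scarna8, the dimmest, had 2.36, 3.23 and 4.53, against 2.92, 3.16 and 3.04 (0.33 ± 0.48).

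The classes did not vary over the arrays to the same extent. The median span between the lowest and the highest array was 2.42 for tested H/ACA genes (5.37-fold), 1.70 for C/D genes (3.24-fold) and 2.17 for Cajal body genes (4.49-fold), against 0.78 (1.71-fold) for all tested genes. Vascepa replicate 3 exceeded vehicle replicate 2, the highest vehicle array, by a median of 1.34 in tested H/ACA genes, 0.50 in C/D genes and 0.72 in Cajal body genes. Vascepa replicate 2 minus vehicle replicate 2 had medians of 0.28, −0.017 and 0.064 in the same order. Within the vehicle group, replicate 2 exceeded replicate 1 by a median of 0.78 in H/ACA, 1.09 in C/D and 1.32 in Cajal body genes. Against vehicle replicate 2, Vascepa replicate 3 thus stood furthest apart in H/ACA genes, while against each gene's own mean its median was 1.24 in all H/ACA, 0.81 in C/D and 1.32 in Cajal body genes. C/D and Cajal body genes stood further apart than H/ACA genes between vehicle replicates 2 and 1. Among members with a mean of at least 6, a limit chosen after their values were seen, Vascepa replicate 3 exceeded vehicle replicate 2 by a median of 1.39 in 13 H/ACA genes and 0.61 in 27 C/D genes. These are single arrays, and no test between classes was made.

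Small RNAs cut from introns of the same host precursor give a view of the classes with transcription of the host in common. Snhg12 is a non-coding host of 3 H/ACA genes and 1 C/D gene. Snora16a had 7.80, 9.11 and 10.05 in Vascepa livers and 8.31, 8.70 and 8.30 in vehicle livers, and Snora44 had 7.54, 9.40 and 9.96, against 7.94, 9.27 and 8.28. Snora61 had 5.97, 7.18 and 7.92, against 6.78, 6.43 and 6.45. The C/D gene Snord99 had 9.97, 10.92 and 11.14, against 9.65, 10.92 and 10.21. All 4 were highest on Vascepa replicate 3, but vehicle replicate 2 equalled Vascepa replicate 2 to within rounding in Snord99 and was the lowest vehicle array in Snora61. Vascepa replicate 3 minus vehicle replicate 2 came to 1.34 for Snora16a, 0.69 for Snora44, 1.49 for Snora61 and 0.22 for Snord99. The groups overlapped in each (differences of 0.55 ± 0.50, 0.47 ± 0.62, 0.47 ± 0.44 and 0.41 ± 0.40). Snhg12 itself had 2.44, 3.74 and 3.23 in Vascepa livers and 2.49, 2.98 and 2.99 in vehicle livers.

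A second non-coding host, 2410006H16Rik, holds 3 C/D genes. Snord49a had 9.39, 10.69 and 11.57 in Vascepa livers, against 9.38, 10.21 and 9.67 in vehicle livers. Snord49b had 9.35, 10.74 and 11.38, against 9.49, 10.86 and 9.82. Snord65 had 5.80, 7.11 and 8.49, against 6.01, 6.61 and 5.87. Vascepa replicate 3 exceeded vehicle replicate 2 by 1.36 in Snord49a, 0.52 in Snord49b and 1.87 in Snord65, so genes of a single class and host also differed from each other. The host had 6.11, 7.42 and 8.73 in Vascepa livers and 6.34, 7.71 and 6.86 in vehicle livers, a span of 2.62, and was highest on Vascepa replicate 3 like its small RNAs. Probes of a non-coding host may read the small RNAs themselves, which was not tested.

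**Figure D3:**
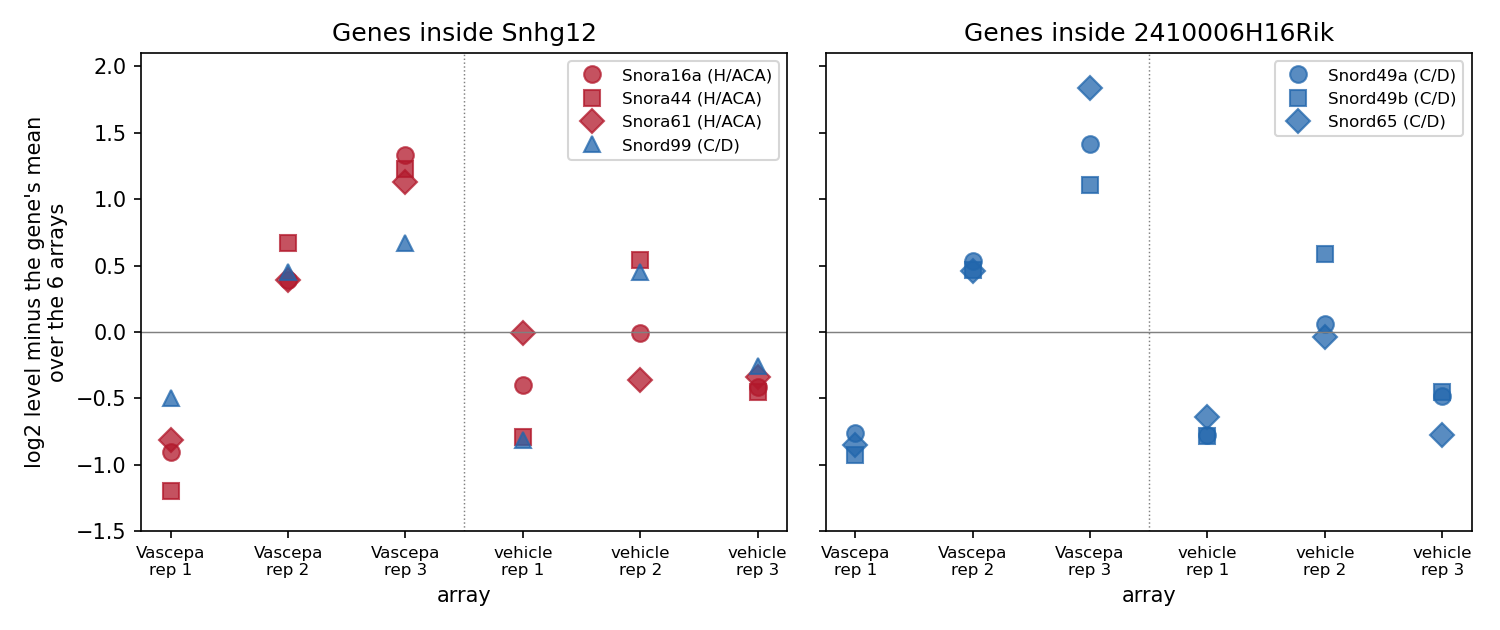
Log2 level minus the gene's own mean over the 6 arrays for the small RNAs inside Snhg12 (left, 3 H/ACA genes and Snord99) and inside 2410006H16Rik (right, 3 C/D genes); each symbol is a gene. All 7 genes are highest on Vascepa replicate 3, while on vehicle replicate 2 genes of the same host lie apart, from −0.36 for Snora61 to 0.54 for Snora44.

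Host genes of the small RNAs varied less over the arrays than the small RNAs did. A host was taken as a protein-coding or long non-coding gene whose span holds the small RNA, and 68 of the 78 members had 1 such gene, 6 had 2 and 4 had none. For 50 members with a single host, both were tested, over 39 hosts, and the small RNA had the wider span in 44 of the 50. The median span was 2.12 for the small RNAs and 0.98 for the hosts. Scarna6 spanned 3.42 and its host Atg16l1 0.12, with Atg16l1 at 5.35, 5.30 and 5.29 in Vascepa livers and 5.30, 5.41 and 5.33 in vehicle livers. Vascepa replicate 3 exceeded Vascepa replicate 1 in 49 of 50 small RNAs and in 28 of 50 host entries. Over all 50, the median of that difference was 2.04 in the small RNAs and 0.13 in the hosts. Single hosts moved far in both directions, from −1.91 for Srcap to 2.62 for 2410006H16Rik. The group difference had a median of 0.45 in the small RNAs and 0.048 in the hosts. Several hosts are counted more than once among the 50, so the pairs are not independent, and no test was made.

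The 6 exceptions were Snora33, Snora41, Snord110, Snord15a, Snord49a and Snord49b. Their hosts are genes of translation or ribosome assembly or the non-coding 2410006H16Rik. Such hosts did not set them apart, because Rpsa, Rpl32 and Nop58 hold small RNAs with spans wider than their own. So does 2410006H16Rik with Snord65 (2.69 against 2.62). Rps12, the host of Snora33, spanned 1.97 against 1.66 for Snora33, and had 7.96, 9.28 and 9.93 in Vascepa livers and 8.28, 9.20 and 8.70 in vehicle livers. Eef1b2 spanned 1.44 against 0.73 for Snora41. Snhg1, the host of Snord22, had 4.05, 5.43 and 5.98 in Vascepa livers and 3.97, 5.26 and 4.69 in vehicle livers, close to the pattern of Snord22. Ncl ran the other way from its small RNAs on Vascepa replicate 3, with 6.46, 6.14 and 5.44 in Vascepa livers and 6.69, 5.73 and 6.32 in vehicle livers, while its C/D gene Snord82 had 9.94, 10.62 and 11.27, against 9.97, 10.60 and 10.06.

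**Figure D4:**
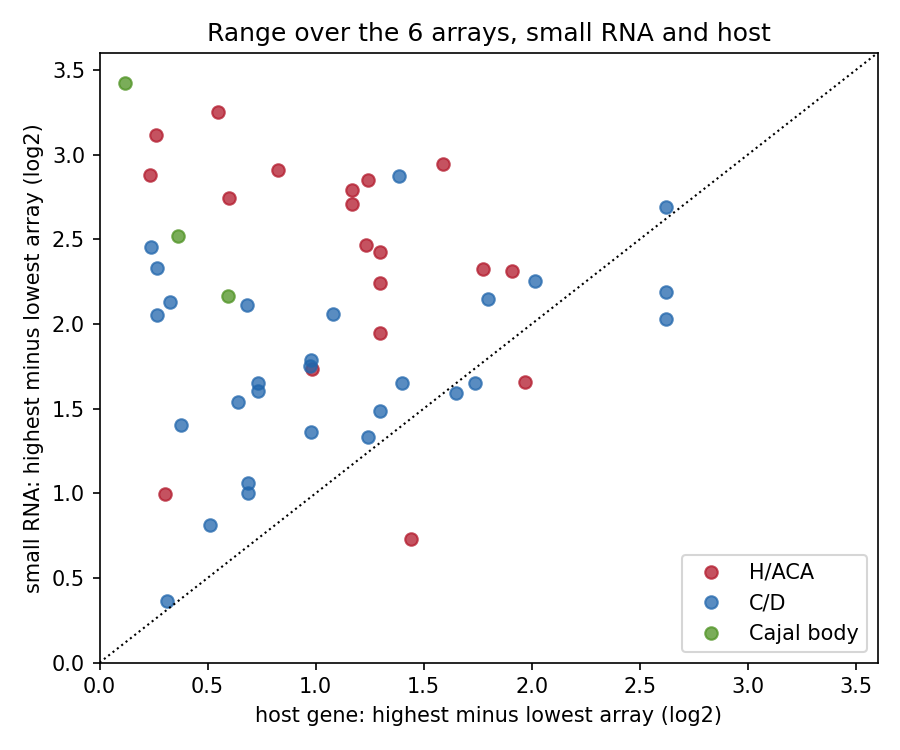
Span over the 6 arrays (highest minus lowest log2 level) of 50 small RNAs against that of the host gene that holds each, with colour for the class and a dotted line of equality. In 44 of the 50 the point lies above the line, and Scarna6 at 3.42 against 0.12 lies farthest to the upper left.

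Genes for the proteins that bind, assemble, move, trim or degrade these RNAs gave values near those of all tested genes. Of 41 genes listed, 36 were tested, and limma called 0 of them at an adjusted p under 0.05, with 0 at an unadjusted p under 0.05 in either direction. Their differences were above 0 in 17 and below 0 in 19, with a median of −0.072. Over the arrays, the median level minus the vehicle mean was 0.055, 0.034 and −0.14 in Vascepa livers, against −0.043, 0.0084 and 0.064 in vehicle livers. Vascepa replicate 3 was the lowest array for this list as it was for all tested genes, whose median there was −0.12, and the list's median difference of −0.072 was near the −0.063 of all genes.

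Core proteins of the C/D particle (3 of 4 measured) had a median difference of 0.19. Nop56, a scaffold protein of that particle, had 4.91, 5.77 and 6.59 in Vascepa livers and 4.97, 5.42 and 4.86 in vehicle livers (0.67 ± 0.40), and it is itself the host of Snord110. Nop58, its partner, differed by 0.19 ± 0.21, and Fbl had no probe of its own. Core proteins of the H/ACA particle (4 of 4) had a median difference of 0.052. The enzyme Dkc1 had 5.43, 5.34 and 4.47 in Vascepa livers and 5.24, 5.26 and 5.36 in vehicle livers (−0.21 ± 0.27). The partners Nhp2 (0.14 ± 0.31), Gar1 (−0.037 ± 0.18) and Nop10 (0.14 ± 0.21) overlapped between groups.

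Assembly factors (9 of 10 tested) had a median difference of 0.053, and the genes of Cajal bodies and transport (6 of 7) one of −0.013. Coil, which encodes the Cajal body protein coilin, had 2.63, 3.04 and 3.15 in Vascepa livers and 2.57, 2.36 and 2.75 in vehicle livers (0.38 ± 0.21), with Vascepa replicate 1 inside the vehicle values. Genes for trimming and decay (14 of 16) had a median of −0.20, with 10 of the 14 lower in Vascepa livers, where 8104 of all 13493 genes were lower. Exosc8, a subunit of the RNA exosome, had 5.97, 6.17 and 6.25, against 6.27, 6.50 and 6.47 (−0.28 ± 0.18), without overlap but far from the adjusted threshold (limma, adjusted p = 0.976). Parn, which trims the ends of H/ACA RNAs, had 5.65, 5.92 and 5.58, against 5.98, 6.13 and 5.91 (−0.29 ± 0.18), and those groups overlapped only between Vascepa replicate 2 and vehicle replicate 3.

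Small RNAs of other families were also highest on Vascepa replicate 3. Of 7 listed genes 6 were measured, and these 6 (Rny1, Rny3, Rn7sk, Rpph1, Terc and Vaultrc5) were all highest on Vascepa replicate 3. Among all tested genes, 23.0% were highest on that array. Rny1, a Y RNA, had 6.39, 7.96 and 9.29 in Vascepa livers and 6.36, 8.18 and 7.35 in vehicle livers. Rpph1, the RNA of ribonuclease P, had 10.16, 11.76 and 12.15, against 10.70, 11.25 and 10.93. Unlike most small nucleolar RNAs, both are transcribed from promoters of their own by RNA polymerase III. Rn7sk, a regulator of transcription elongation, spanned only 0.55, the least of the 6. It was also the brightest of them, at 12.53 to 13.08, where the brightest tested gene reached 13.34. Whether the top of the scale narrowed its span was not tested. Terc, the telomerase RNA, is bound by the same proteins as H/ACA RNAs, and had 3.80, 4.52 and 5.58, against 3.82, 4.68 and 4.08.

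The spliceosomal Rnu11 and Rnu12 and the U3 gene Rnu3a, a C/D RNA by structure that the symbol rule leaves out, were also all highest on Vascepa replicate 3. Rnu3a had 2.21, 2.74 and 3.93 in Vascepa livers, against 2.53, 2.86 and 2.08 in vehicle livers. For the 122 tested microRNA genes the median level minus the vehicle mean was 0.040, 0.14 and 0.23 in Vascepa livers, against −0.056, 0.077 and −0.0077 in vehicle livers. For the 78 members the same quantity was −0.50, 0.66 and 1.18 in Vascepa livers, against −0.39, 0.53 and −0.13 in vehicle livers. The median span was 1.88 for the 6 other small RNAs, while that of the microRNA genes, 0.82, was near the 0.78 of all genes. The microRNA genes were dim, with array medians of 3.47 to 3.69, and RMA compresses differences between dim genes. Their differences were above 0 in 66.4%, against 39.9% of all genes. Groups did not overlap for 14 of the 122 that were higher, where 3.13% of all genes were, and for 4 that were lower, where 5.11% were.

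**Figure D5:**
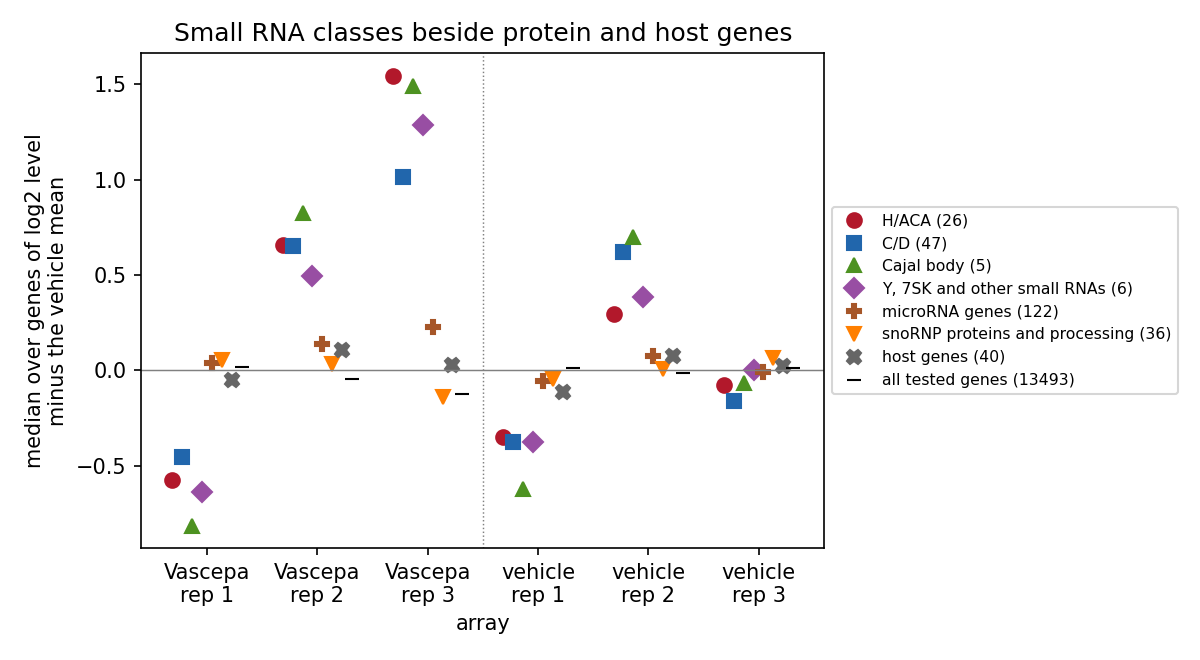
Median over genes of the log2 level minus the vehicle mean, by array, for the 3 small RNA classes, the other small RNAs, tested microRNA genes, protein genes for small nucleolar RNA particles and processing (snoRNP), host genes and all tested genes; numbers of genes stand in the legend. The 3 classes and the other small RNAs reach 1.02 to 1.54 on Vascepa replicate 3, while the protein list stands at −0.14 and the hosts at 0.029 there.

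Of the 6 members under the intensity limit, Snord88a had the only groups without overlap, and it was not tested. It had 2.58, 2.65 and 2.61 in Vascepa livers and 2.38, 2.09 and 2.31 in vehicle livers. Among tested genes, 3.13% were higher without overlap, and the share among genes under the limit was not computed. Snora35, inside the serotonin receptor gene Htr2c, is known as a brain RNA and had a mean of 1.69. Snora19 had 2 probes with identical values on every array, which count once. Snora33 had a second probe with a mean of 3.75 against 9.27 for the one used, and on that second probe Vascepa replicate 3 was the highest array at 4.50, whereas on the one used vehicle replicate 2 was. The 2 probes of Scarna17 ran alike, at 7.10, 8.51 and 8.25 in Vascepa livers and 6.99, 7.92 and 7.59 in vehicle livers on the one used, and at 6.79, 8.14 and 7.93, against 6.69, 7.70 and 7.07, on the other.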

How the data were processed

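The authors deposited log2 expression values for 41345 probes on 6 arrays, made with Affymetrix Expression Console and RMA per the submitters' processing notes, with no version given in the sources used here. RNA was extracted with RNeasy Mini Plus columns, per the labels' protocols. How evenly RNAs as short as the members were recovered in each sample was not tested. RMA compresses differences between dim genes. Depth does not apply to arrays, and scan dates or slides were not known. Probes with 1 gene symbol (23521) were used, 1814 with several and 16010 unnamed ones were not, and 23328 symbols were updated by gene ID through a RefSeq table (GRCm38.p6). That table gave no strand for the members, so hosts were assigned by span alone, without the strand rule that had been planned.

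Vascepa and vehicle arrays were compared with limma 3.58.1 under R 4.3.3 (lmFit, then eBayes, without covariates, Benjamini-Hochberg over 13493 genes). On data simulated with the spread of all tested genes, this procedure recovered 14.9% of changes of 1 and 83.8% of changes of 2. Of its calls there, 4.37% were false. The members had a wider spread within groups, for which recovery was not simulated. Named members were the 3 with the highest mean per class, the 5 with the smallest p in each direction, the 3 with the widest and the 3 with the narrowest span, and RNAs of known roles; members of host clusters, untested members and others named were chosen after their values were seen. Members and lists were chosen with earlier results of these data known. Alternatives were other filters, normalizations and probe choices, an intensity trend, array weights, a replicate block and leaving out each array.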

Additional observations from a re-analysis of the deposited data

How the results depend on the processing

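No alternative but array weights called any small RNA. The number past the adjusted threshold was 0 under the other filters, normalizations, probe choices, the intensity trend, the replicate block and without each array. With array weights, 53 of the 72 tested members and 8 of the 36 protein genes were called, where 30.4% of all genes were. The median difference kept its sign in the set as a whole and in all 3 classes under each alternative and moved by less than the spread between replicates, from 0.022 to 0.93 without single arrays for all members, 0.017 to 1.18 for H/ACA, 0.078 to 0.84 for C/D and 0.0044 to 0.88 for Cajal body genes. Centring the arrays gave 0.38, with a median of −0.14 for all genes and 10 members lower. Of 29 named members, 12 changed sign under at least 1 of 15 alternatives, and none of the 12 passed the threshold without array weights. Snora33 was −0.024 with centred arrays, Snora20 0.074 with quantile normalization again, and Snora41 and Snord70 0.15 and 0.063 with array weights. Leaving out single arrays gave −0.33 to 0.50 for Snora33, −0.028 to 1.18 for Snora44, −0.15 to 1.47 for Snora15, −0.11 to 1.45 for Snora34, −0.11 to 0.65 for Snord104, −0.25 to 0.77 for Scarna2, −0.21 to 0.91 for Snord22, −0.050 to 0.84 for Snord118, −0.46 to 0.28 for Snord70, −0.46 to 0.24 for Snord88c and −0.21 to 0.23 for Snora20. The cause was not tested.

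Samples share replicate numbers, and the deviations of same-numbered arrays from their group means correlated at 0.606, 0.108 and −0.129. Between Vascepa replicate 3 and vehicle replicate 2 the value was 0.573. With 3 arrays per group such deviations are not independent of each other, so these values cannot decide whether the numbers pair the samples. With the replicate block, 0 members passed in limma. There 5 instead of 2 had an unadjusted p under 0.05 and a higher Vascepa mean, against 0.956% of all genes.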
